A study of Mus musculus with 16 samples.

Results

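Dbp, Tef and Hlf encode the PAR bZIP transcription factors and Nfil3 encodes their bZIP antagonist; their RNA was measured in a salivary gland of the mouse, the submandibular gland, across the day and after ionising radiation. The genes were taken by name, as 4 of the 55181 genes joined across the expression files. The study measured RNA in 10 libraries of wild-type (WT) mice aged 6 to 8 weeks, 2 per group. The irradiated glands were taken 6 h and 24 h after 5 Gy, and the unirradiated glands at ZT3, ZT9 and ZT15, where ZT is the time since lights on in hours, which the labels place at clock hours 10, 16 and 22. CUT&Tag maps a chromatin protein by tethering a transposase to its antibody. It gave 6 summit lists from untreated glands, with Bmal1 (encoded by Arntl), Nr1d1 and Dbp as targets, 2 lists each. No time of day or age is given here for the glands used in CUT&Tag. Its labels write the target under genotype ("Bmal1 mouse"), and no control library for it was analysed here. The labels do not state the sex of the mice, the clock hour of irradiation or of the irradiated collections, or whether replicates came from separate animals. A p-value here thus reflects only how much these libraries spread, which may be technical.

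PAR bZIP proteins bind D-box sites as dimers and activate transcription, whereas NFIL3 (also called E4BP4) binds the same sites and represses it. In the textbook clock, BMAL1 with CLOCK drives Dbp and its relatives through E-box sites, and NR1D1 (REV-ERBα) represses Nfil3 through RRE sites, so that activators and repressor peak at different times of day. Among D-box genes are the Period genes and, in liver, enzymes and receptors of drug and vitamin metabolism.

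The libraries differed in ways that their group labels do not state. Total FPKM (fragments scaled for transcript length and library size) was 791786 to 1174465 per library, and the depth in reads is unknown. Y-linked transcripts were present in replicate 1 of both irradiated groups, in both libraries at ZT3 and in ZT15 replicate 2. They were listed at 0 in the other 5 libraries, where Xist was 24.9 to 58.3 FPKM. The summed markers of T cells were 18.1 to 48.5 FPKM in ZT3 replicate 2, ZT15 replicate 2 and 6 h replicate 2, and at most 2.87 FPKM in the others. Of 7 acinar markers of the gland, Aqp5, Bhlha15 and Slc12a2 were at 55.4 FPKM or more in every library, but the mucin Muc19 was 0.274 FPKM in ZT9 replicate 2 and Prol1 was listed at 0 in 24 h replicate 1. The parotid amylase Amy1 ranged from 12.8 to 19203 FPKM. The markers Egf, Ren1, Klk1b3 and Klk1b9 of granular convoluted tubules, ducts that secrete kallikreins, summed to 5148 and 326 FPKM at 6 h and 3793 and 204 FPKM at 24 h. At ZT3 the sum was 21200 and 39277 FPKM, at ZT9 193 and 305 FPKM, and at ZT15 498 and 6107 FPKM, so that both ZT3 libraries lay above all others. The sum also divided as the Y-linked transcripts did. It was 3793 to 39277 FPKM in libraries with them and 193 to 498 FPKM in those where they were listed at 0.

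The promoters of Tef, Nfil3 and Dbp are printed because they hold, or lie beside, the summits described further on. Each window runs from 250 bases before to 50 after an annotated start, 5′ to 3′ on the strand of the gene, from RefSeq (GRCm38.p6, the assembly behind mm10). Tef, on chromosome 15, has 2 annotated starts 8741 bp apart, and capitals mark CACGTG, the canonical E-box.

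Tef first start, chr15:81802423-81802722: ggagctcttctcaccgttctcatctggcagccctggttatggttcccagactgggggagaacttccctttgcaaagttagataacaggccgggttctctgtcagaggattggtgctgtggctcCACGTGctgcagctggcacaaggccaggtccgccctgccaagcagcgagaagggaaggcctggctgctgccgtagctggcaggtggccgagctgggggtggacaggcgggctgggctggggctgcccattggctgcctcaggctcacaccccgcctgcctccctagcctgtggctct

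Tef second start, chr15:81811164-81811463: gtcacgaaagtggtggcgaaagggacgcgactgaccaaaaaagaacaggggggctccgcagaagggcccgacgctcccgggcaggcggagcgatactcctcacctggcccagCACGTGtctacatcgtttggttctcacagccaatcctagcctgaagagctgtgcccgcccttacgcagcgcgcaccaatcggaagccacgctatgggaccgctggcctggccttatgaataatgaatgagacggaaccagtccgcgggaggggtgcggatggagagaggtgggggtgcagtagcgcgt

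The E-box began at base -127 from the first start and at -138 from the second. CACGTG, which reads the same on both strands, was found in 7.15% of 32851 RefSeq promoter windows of the same length. In the Nfil3 window, capitals mark TGACCTA, the reverse complement of TAGGTCA, the RRE core AGGTCA with the T before it, which began at base -12 and was found on either strand in 2.61% of windows.

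Nfil3 start, chr13:52980990-52981289: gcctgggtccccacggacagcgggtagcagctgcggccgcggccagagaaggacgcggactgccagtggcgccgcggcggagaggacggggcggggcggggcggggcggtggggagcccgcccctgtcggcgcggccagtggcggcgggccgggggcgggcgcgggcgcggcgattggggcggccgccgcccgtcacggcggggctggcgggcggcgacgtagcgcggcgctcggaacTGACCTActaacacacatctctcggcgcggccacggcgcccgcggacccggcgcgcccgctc

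The Dbp window, on chromosome 7, held none of the letters searched and so has no capitals.

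Dbp start, chr7:45704997-45705296: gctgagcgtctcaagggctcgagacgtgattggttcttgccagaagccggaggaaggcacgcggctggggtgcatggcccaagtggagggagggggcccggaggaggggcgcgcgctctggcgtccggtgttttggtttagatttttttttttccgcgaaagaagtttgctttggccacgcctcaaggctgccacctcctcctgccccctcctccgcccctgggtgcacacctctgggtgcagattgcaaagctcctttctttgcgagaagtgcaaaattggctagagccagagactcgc

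The other letters searched on both strands were the D-boxes TTATGTAA, TTATGCAA and TTACGTAA, found in 0.938%, 0.743% and 0.119% of windows, and the RRE variant TGGGTCA, found in 3.98%. None of these was in any of the 5 windows of the 4 genes, and the Hlf window held no searched motif. The motifs do not overlap one another in these windows, and a match or its absence is a description of these letters only. G and C made up 60.3% (Dbp), 64.0% and 62.0% (Tef), 67.3% (Hlf) and 81.7% (Nfil3) of the windows, against a median of 52.7% over all windows.

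Dbp, an activator named for a site in the albumin promoter, had the widest range of the 4 genes, 72.6-fold from the lowest to the highest library. It had 86.8 and 95 FPKM at 6 h after irradiation and 22.1 and 76.3 FPKM at 24 h. In unirradiated glands it had 8.55 and 3.88 FPKM at ZT3, 281 and 115 FPKM at ZT9, and 12.5 and 28.1 FPKM at ZT15. Both ZT9 libraries lay above all others and both ZT3 libraries below all others. The order of the group means was ZT9 (198 ± 118), 6 h (90.9 ± 5.82), 24 h (49.2 ± 38.4), ZT15 (20.3 ± 11) and ZT3 (6.21 ± 3.31; SD, n = 2 each), and only the 24 h and ZT15 libraries overlapped among neighbours in that order. Replicates were 3.46-fold apart at 24 h and 1.09-fold apart at 6 h.

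Tef, a PAR bZIP activator that varies less through the day than Dbp in other tissues, had 94.0 and 94.4 FPKM at 6 h and 72.7 and 130 FPKM at 24 h. In unirradiated glands it had 29.4 and 16 FPKM at ZT3, 72.3 and 105 FPKM at ZT9, and 56.5 and 63.9 FPKM at ZT15. The 2 ZT3 libraries were the lowest of the 10, and the ZT15 libraries came next. The means at 24 h (101.2 ± 40.3), 6 h (94.2 ± 0.313) and ZT9 (88.9 ± 23.4) stood first in the order with overlapping libraries, followed by ZT15 (60.2 ± 5.19) and ZT3 (22.7 ± 9.49; SD, n = 2 each).

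Hlf, the member known best from liver, kidney and brain, was near the detection filter of 1 FPKM, which 7 of the 10 libraries reached. It had 1.44 and 1.33 FPKM at 6 h and 0.696 and 1.30 FPKM at 24 h. In unirradiated glands it had 0.572 and 0.243 FPKM at ZT3, 1.25 and 2.63 FPKM at ZT9, and 1.24 and 1.40 FPKM at ZT15. As for Dbp and Tef, the ZT3 libraries were the lowest of the 10, while the other neighbouring groups in the order of means overlapped. How many of all genes had both ZT3 libraries lowest was not counted. The FPKM of Tef was 40.1 to 70.9 times that of Hlf in 8 libraries, and 104 and 99.7 times that of Hlf at 24 h.

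Nfil3, which encodes the repressor, had 4.79 and 3.92 FPKM at 6 h and 4.38 and 3.64 FPKM at 24 h. In unirradiated glands it had 7.83 and 11.6 FPKM at ZT3, 7.44 and 6.77 FPKM at ZT9, and 29.5 and 10.7 FPKM at ZT15. All 4 irradiated libraries lay below all 6 unirradiated ones. The order of the means was ZT15 (20.1 ± 13.2), ZT3 (9.72 ± 2.67), ZT9 (7.11 ± 0.473), 6 h (4.36 ± 0.616) and 24 h (4.01 ± 0.520; SD, n = 2 each), with overlap between ZT15 and ZT3 and between 6 h and 24 h. The highest value, in ZT15 replicate 1, was 2.75 times that of its replicate. Nfil3 also acts in lymphoid cells. In that library and in ZT15 replicate 2, the T-cell markers summed to 1.48 and 48.5 FPKM, the markers of B and plasma cells to 414 and 5390 FPKM, and those of NK and innate lymphoid cells to 4.13 and 8.86 FPKM. Within the last sum, Ncr1 was 1.22 and 1.01 FPKM and Klrb1c 1.25 and 1.36 FPKM, so that the difference lay mainly in Il7r. The part of lymphoid cells in the Nfil3 values was not tested.

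**Figure D1:**
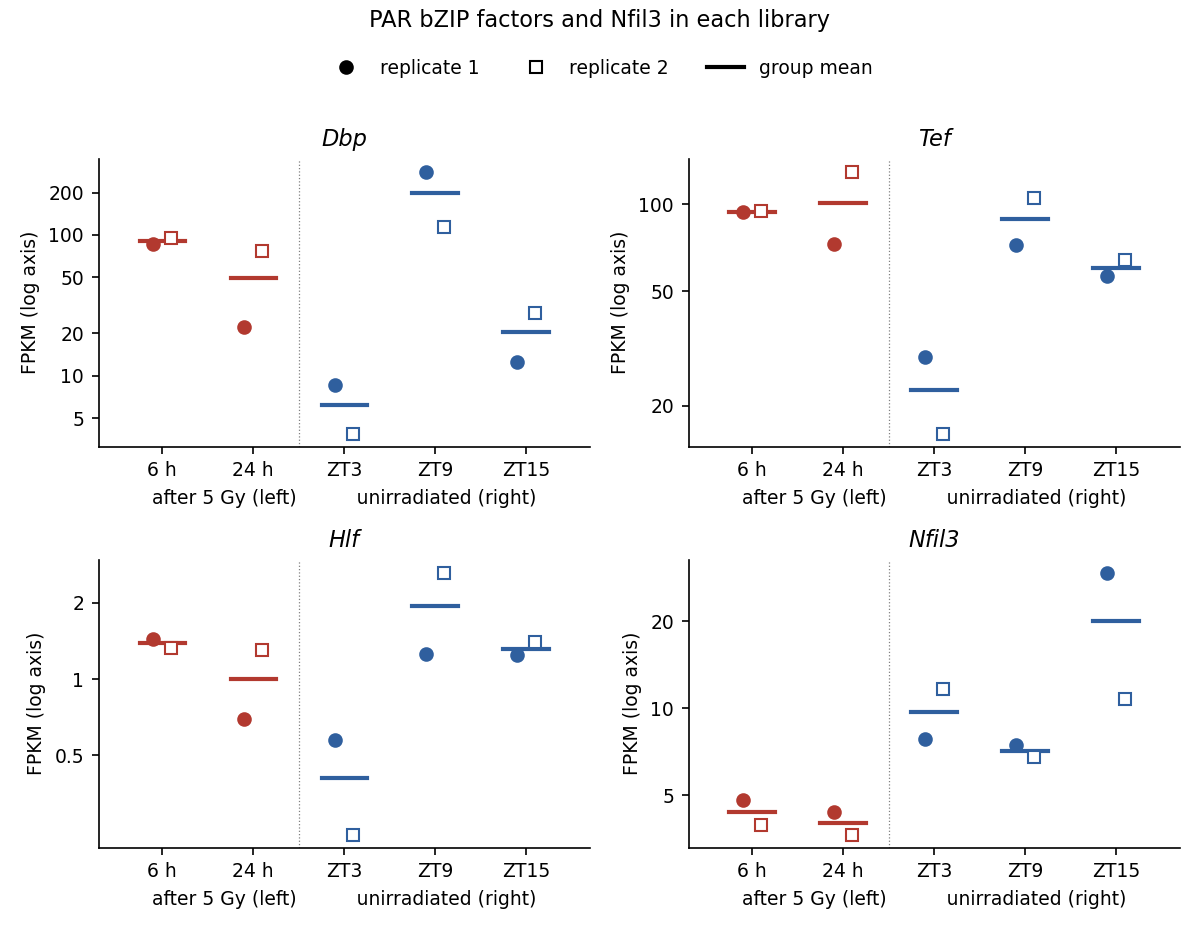
FPKM (log axis) of Dbp, Tef, Hlf and Nfil3 in each of the 10 libraries, with 6 h and 24 h after 5 Gy on the left and ZT3, ZT9 and ZT15 on the right; circles and squares are replicates and lines are group means. Dbp was highest at ZT9 (281 and 115), Dbp, Tef and Hlf were lowest at ZT3, and Nfil3 was lower in all 4 irradiated libraries (3.64 to 4.79) than in the 6 unirradiated ones (6.77 to 29.5).

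The first comparison asks how the 4 genes varied through the day in unirradiated glands. Values were tested as log2(FPKM + 1) with limma over the 15161 genes that passed the filter, and a gene was called at a Benjamini-Hochberg adjusted p under 0.05. At ZT9 against ZT3, Dbp was 31.9-fold higher by mean FPKM, and its log2 difference was 4.73 (SE 0.68, 95% interval 3.15 to 6.31), which was not called (limma adjusted p = 0.1015). That difference ranked 21st of all genes by p. Tef had a log2 difference of 1.96 (interval 1.14 to 2.78) and Hlf of 1.03 (0.35 to 1.72), with limma adjusted p = 0.116 and 0.1816. Nfil3 differed by -0.38 (-1.33 to 0.57). Of the 4 genes 0 were called, where 0.0066% of all genes, 1 gene, were, while 2427 genes had an unadjusted p under 0.05, Dbp, Tef and Hlf among them. The libraries of the groups did not overlap for any of the 4, as for 46.9% of all genes.

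At ZT15 against ZT3 the log2 differences were 1.54 for Dbp, 1.43 for Tef, 0.73 for Hlf and 0.84 for Nfil3. Without ZT15 replicate 1 the value for Nfil3 was 0.15, and without replicate 2 it was 1.53 and that for Dbp 0.99. The libraries did not overlap for 3 of the 4, Dbp, Tef and Hlf, as for 43.3% of all genes. Again 0 of the 4 were called by limma, where 0.0198% of all genes were and 1726 had an unadjusted p under 0.05. At ZT15 against ZT9 Dbp was lower by 9.74-fold in the means, a log2 difference of -3.19 (SE 0.68, interval -4.77 to -1.61), with limma adjusted p = 0.6654. Nfil3 had a log2 difference of 1.22 (0.27 to 2.17), which was 0.53 without ZT15 replicate 1 and 1.91 without replicate 2. Tef (-0.53) and Hlf (-0.30) had intervals that included 0. The libraries did not overlap for 3 of the 4, all but Hlf, as for 32.1% of all genes. No gene at all was called by limma between ZT15 and ZT9 (0%), against 1106 at an unadjusted p under 0.05. In the F test over the 3 times 0.0198% of all genes were called, and the adjusted p was 0.1799 for Dbp, 0.1994 for Tef, 0.3147 for Hlf and 0.3754 for Nfil3 in limma.

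At ZT9 the call for Dbp depended on the libraries in the fit. It passed in limma without either 24 h library (adjusted p = 0.0403 without replicate 1 and 0.0395 without replicate 2) and in a fit of the compared libraries alone (adjusted p = 0.0467). Over all alternatives its adjusted p ranged from 0.0395 to 0.506 and its log2 difference from 4.08 to 5.37. The ZT3 libraries held Y-linked transcripts and the ZT9 libraries held Xist, and their files listed genes in different orders. The 4 tubule markers summed to 193 and 305 FPKM at ZT9 and to 21200 and 39277 FPKM at ZT3, and this stands beside every comparison with ZT3, where Dbp, Tef and Hlf were lowest. Within these groups such differences and time of day cannot be told apart. With the mean level of Y-linked transcripts, as log2(FPKM + 1), as a covariate over all 10 libraries, the log2 difference of Dbp was 4.43 (limma adjusted p = 0.506). Sphk2, a gene that overlaps Dbp, had 23.1 and 13.4 FPKM at ZT9 and 13.3 and 10.2 FPKM at ZT3. Whether reads were assigned by strand is not stated.

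**Figure D2:**
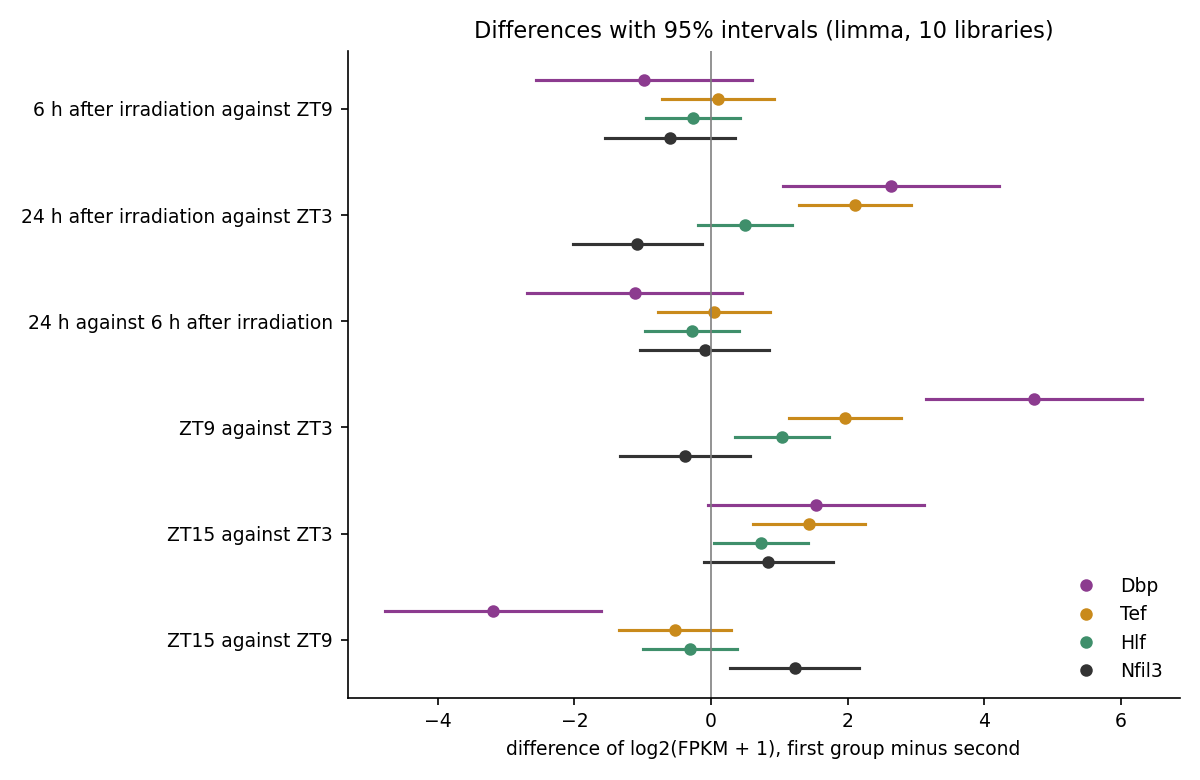
Differences of log2(FPKM + 1), first-named group minus second, with 95% intervals from limma over 10 libraries for 6 comparisons. The interval of Dbp lies above 0 at ZT9 against ZT3 (3.15 to 6.31) and below 0 at ZT15 against ZT9 (-4.77 to -1.61); all 4 intervals include 0 at 6 h against ZT9 and at 24 h against 6 h.

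Irradiated glands at 6 h were compared with ZT9, and those at 24 h with ZT3, since the labels mark the ZT3 controls as the starting time. The irradiated files listed genes in the order of the ZT3 files, and the ZT9 files in another. At 6 h against ZT9, the file orders and irradiation thus cannot be told apart. Replicate 1 of each irradiated group held Y-linked transcripts and replicate 2 held Xist. Both ZT9 libraries held Xist, and both ZT3 libraries held Y-linked transcripts. At 6 h Dbp averaged 0.459 times its ZT9 mean, and its libraries (86.8 and 95 FPKM) lay below both at ZT9 (281 and 115 FPKM). The log2 difference of -0.98 had an interval of -2.56 to 0.60, which included 0, and it was -0.33 without ZT9 replicate 1 and -1.62 without replicate 2. Tef differed by 0.11 (-0.71 to 0.93), Hlf by -0.26 (-0.95 to 0.43) and Nfil3 by -0.60 (-1.55 to 0.35). The limma adjusted p was 0.601, 0.9256, 0.7575 and 0.5929 in that order of genes, so that 0 of 4 were called, where 0.514% of all genes were and 1847 had an unadjusted p under 0.05. The libraries did not overlap for 2 of the 4, Dbp and Nfil3, as for 43.2% of all genes. Against ZT3 and ZT15 in place of ZT9, Dbp at 6 h was higher, by 3.75 and 2.21 on the log2 scale, with limma adjusted p = 0.06178 and 0.3872.

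At 24 h against ZT3, Tef had the smallest p of the 4 genes, with both libraries (72.7 and 130 FPKM) above both at ZT3 (29.4 and 16 FPKM). Its log2 difference was 2.11 (SE 0.35, interval 1.29 to 2.93), just outside the threshold (limma adjusted p = 0.06134). Dbp differed by 2.63 (1.05 to 4.21; limma adjusted p = 0.1386), Hlf by 0.50 (-0.19 to 1.19; 0.4094) and Nfil3 by -1.08 (-2.03 to -0.13; 0.2327). Of the 4 genes 0 were called, where 0.495% of all genes were and 2720 had an unadjusted p under 0.05. The libraries did not overlap for any of the 4, as for 57.1% of all genes. Tef passed in limma when either ZT9 library was left out (adjusted p = 0.0488 without replicate 1 and 0.0491 without replicate 2). Over all its alternatives, which include the other control times, the adjusted p of Tef ranged from 0.0488 to 0.828 and its log2 difference from 0.15 to 2.53. Against ZT9 in place of ZT3, the log2 difference of Dbp at 24 h was -2.10 (limma adjusted p = 0.106) and that of Tef 0.15, so the direction for Dbp depended on the control time.

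Between the irradiated groups, at 24 h against 6 h, the log2 difference was -1.12 for Dbp, 0.04 for Tef, -0.27 for Hlf and -0.10 for Nfil3, all with intervals that included 0. The value for Dbp was -0.25 without 24 h replicate 1 and -1.99 without 24 h replicate 2. Dbp (22.1 and 76.3 FPKM at 24 h, 86.8 and 95 FPKM at 6 h) and Hlf, 2 of the 4, did not overlap between the groups, as for 58.9% of all genes. In limma 0 of 4 were called, where 0.0198% of all genes were and 2940 had an unadjusted p under 0.05. The difference between the changes at 24 h and at 6 h was 3.61 for Dbp (interval 1.37 to 5.84), 2.00 for Tef (0.84 to 3.16), 0.76 for Hlf and -0.48 for Nfil3. It is by construction the value at 24 h against 6 h plus that at ZT9 against ZT3 in unirradiated glands. The latter was 4.73 for Dbp and 1.96 for Tef. None of the 4 was called for the difference between the changes (limma adjusted p = 0.2944 for Dbp and for Tef), where 0.0198% of all genes were and 1620 had an unadjusted p under 0.05.

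After the values of Nfil3 were seen, the 4 irradiated libraries were compared with the 6 unirradiated ones, taking the mean of the 2 irradiated groups minus the mean of the 3 control times. Nfil3 averaged 4.18 ± 0.507 FPKM in irradiated libraries (SD, n = 4) and 12.3 ± 8.62 FPKM in unirradiated libraries (SD, n = 6). Its log2 difference was -1.18 (SE 0.26, interval -1.80 to -0.57), with limma adjusted p = 0.06994. Of all genes 1.95% were called in this comparison, and 0.297% had all 4 irradiated libraries below all 6 unirradiated ones. All 4 lay above all 6 for 4.58% of genes, and the share in either direction was 4.87%. Without ZT15 replicate 1, its highest library, the difference was -0.95 and passed (limma adjusted p = 0.0409), and without ZT15 replicate 2 it was -1.41 (adjusted p = 0.0101). Over all alternatives it stayed between -1.41 and -0.95, with adjusted p from 0.0101 to 0.239. With the Y-linked covariate it was -1.18 (limma adjusted p = 0.101). The irradiated libraries overlapped with the unirradiated ones for Dbp, Tef and Hlf, whose differences were 1.10, 0.96 and 0.05 (limma adjusted p = 0.2178, 0.08109 and 0.9121). In bulk tissue, fewer cells of a type and less RNA per cell cannot be told apart, and the unirradiated groups span 3 times of day.

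Since activators and repressor share D-box sites, their levels were set against each other within each library. The summed FPKM of Dbp, Tef and Hlf was 38 and 48.6 times that of Nfil3 at 6 h and 21.8 and 56.9 times at 24 h. In unirradiated glands the ratio was 4.92 and 1.73 at ZT3, 47.7 and 32.9 at ZT9, and 2.39 and 8.70 at ZT15. All 4 irradiated libraries thus lay above the ZT3 and ZT15 libraries, and they spread on both sides of the ZT9 libraries. The ratio of Dbp alone to Nfil3 was 5.04 to 24.2 in irradiated libraries, and 0.334 to 2.62 at ZT3 and ZT15 against 16.9 and 37.8 at ZT9.

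Dbp made up 47.6% and 49.8% of the summed activators at 6 h and 23.1% and 36.8% at 24 h. At ZT3 the share was 22.2% and 19.3%, at ZT9 79.3% and 51.5%, and at ZT15 17.8% and 30.1%. Tef was therefore the larger part in both libraries at 24 h, ZT3 and ZT15, and Hlf was at most 1.77% in any library. The ratios are descriptions of RNA levels, with no test.

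**Figure D3:**
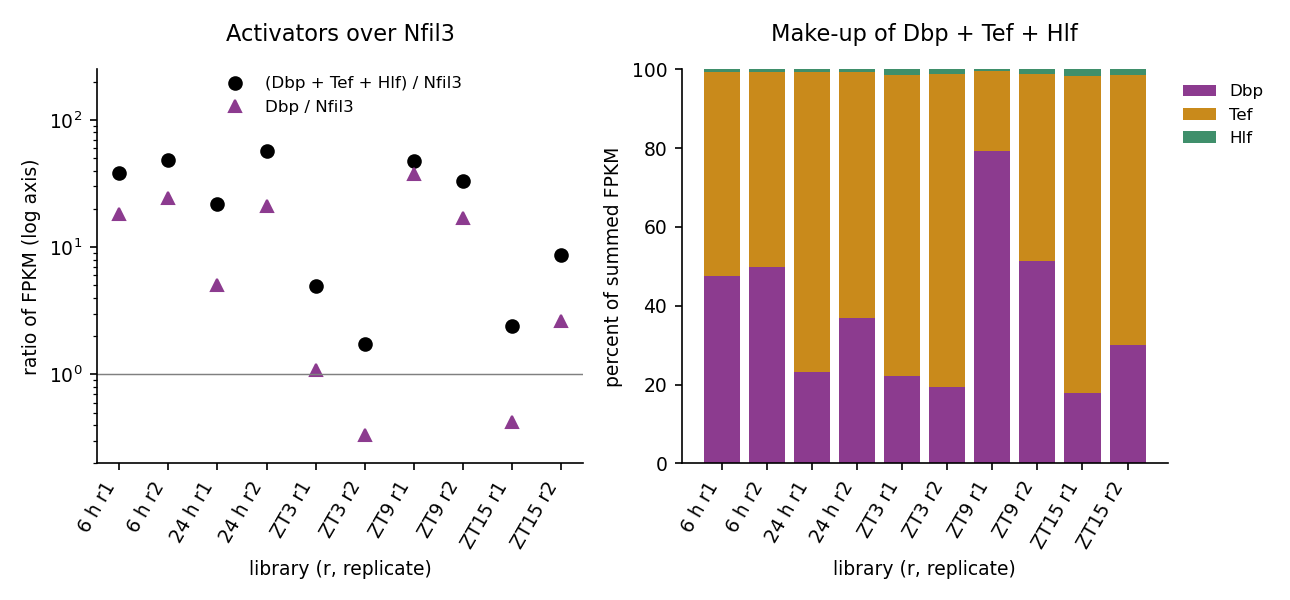
Left, the ratio of summed Dbp, Tef and Hlf FPKM to Nfil3 FPKM and the ratio of Dbp to Nfil3 (log axis) in each library; right, the percent of the summed FPKM that each activator took. The summed ratio was 21.8 to 56.9 in irradiated libraries, 32.9 and 47.7 at ZT9, and at most 8.70 at ZT3 and ZT15.

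Clock genes with D-box sites were set beside the 4 genes. Of 7 listed, 6 passed the filter (Rorb did not), and 3 were called higher at 24 h against ZT3, where 0.462% of all genes were called higher: the Period genes, whose products repress BMAL1 and CLOCK. Per1 had 22.7 and 49.8 FPKM at 24 h, against 6.60 and 6.92 FPKM at ZT3, a log2 difference of 2.16 (limma adjusted p = 0.03847). Per2 had 6.65 and 12.4 FPKM at 24 h, against 0.472 and 0.369 FPKM at ZT3 (2.83; limma adjusted p = 0.02143), and Per3 15.2 and 28.6 FPKM, against 4.05 and 1.60 FPKM (2.60; limma adjusted p = 0.03802). Against ZT9 in place of ZT3, the log2 differences of Per1, Per2 and Per3 at 24 h were 0.54, 0.43 and -0.23 (limma adjusted p = 0.3176, 0.4498 and 0.7512). In unirradiated glands at ZT9 against ZT3 they were 1.621, 2.405 and 2.823 (limma adjusted p = 0.1218, 0.09772 and 0.09588). At 24 h against ZT3 the median log2 difference of the 6 genes was 1.68, beside 0.21 for all genes. At 6 h against ZT9 none of the 6 was called by limma or had an unadjusted p under 0.05, and their median was 0.07, beside 0.12 for all genes.

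None of the E-box activators Arntl, Clock and Npas2, of the other repressors (Cry1, Cry2, Ciart, Bhlhe40 and Bhlhe41) or of the receptors Nr1d1, Nr1d2 and Rora was called in those 2 comparisons. Of all genes 0.495% and 0.514% were called. At 24 h against ZT3 all 8 repressors, the Period genes included, were higher at an unadjusted limma p under 0.05 (median 1.49), as were Nr1d2 and Rora. Arntl and Npas2 were lower at that p, which 2720 of all genes had, but Clock and Nr1d1 did not reach it. All 8 repressors were also higher at that p at ZT9 against ZT3 (median 1.52). At 6 h against ZT9 none of these genes reached it. Arntl had 0.861 and 1.05 FPKM at 6 h and 5.31 and 3.17 FPKM at 24 h, against 9.41 and 15.6 FPKM at ZT3 and 0.803 and 0.855 FPKM at ZT9. Arntl was thus highest at ZT3, where the 3 activators were lowest. Nr1d1, the receptor that represses through RRE sites, had 38.4 and 35.0 FPKM at 6 h and 20.9 and 38.3 FPKM at 24 h. In unirradiated glands it had 27.1 and 12.9 FPKM at ZT3, 67.8 and 51.5 FPKM at ZT9, and 3.47 and 9.11 FPKM at ZT15.

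Genes known mainly from liver as PAR bZIP targets were listed as well. Of 8, 7 passed the filter, and none was called by limma at 24 h against ZT3 (median log2 difference 0.09) or at 6 h against ZT9 (-0.07), with none at an unadjusted p under 0.05. Among all genes 0.495% and 0.514% were called in these comparisons, and the medians were 0.21 and 0.12. In unirradiated glands at ZT9 against ZT3, 6 of the 7 were higher and 1 lower (median 0.27). There 3 had an unadjusted limma p under 0.05, as did 2427 of all genes, and none was called, where 0.0066% of all genes were. Alas1, which makes the first intermediate of heme, had 108 and 112 FPKM at 6 h and 76.1 and 70.7 FPKM at 24 h, against 70.7 and 53.9 FPKM at ZT3 and 103 and 129 FPKM at ZT9. Cyp2b10, a cytochrome of drug metabolism, had 8.89 and 14.1 FPKM at 6 h and 63.8 and 4.26 FPKM at 24 h. In unirradiated glands it had 45.7 and 73.5 FPKM at ZT3 and 2.86 and 2.67 FPKM at ZT9. Cyp7a1, the rate-limiting enzyme of bile acid synthesis, was listed at 0 in all 10 libraries.

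**Figure D4:**
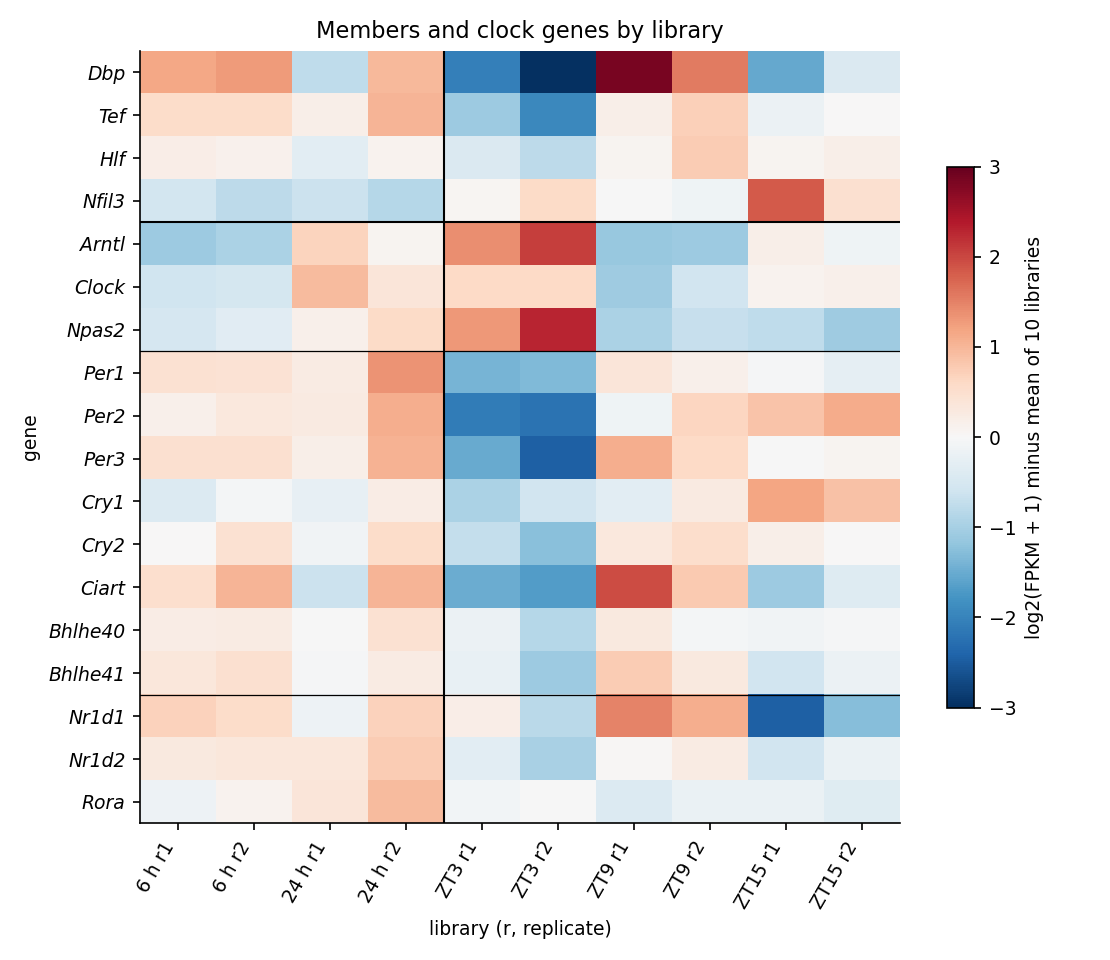
Log2(FPKM + 1) of the 4 genes and 14 clock genes in each library, minus the mean of the 10 libraries, with irradiated libraries on the left. Dbp, Tef, Hlf and the Period genes are below their means in both ZT3 libraries, where Arntl and Npas2 are above theirs, and Nfil3 is below its mean in all 4 irradiated libraries.

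The genes most like each member were taken by Pearson correlation of log2(FPKM + 1) over the 10 libraries, which share depth and composition, among genes with a mean of at least 5 FPKM. For Tef they were Per3 (r = 0.953), Cry2 (0.947) and Usp2 (0.936), which includes a pair of clock repressors. For Dbp they were Abhd14a (0.913), Plekhh3 (0.910) and Naa10 (0.896). For Hlf they were Mtfr1 (0.954), Ssbp3 (0.922) and Pex5 (0.884), and for Nfil3 Slc31a1 (0.896), Bcar3 (0.884) and Cdr2 (0.879). These are descriptions without a test.

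The CUT&Tag lists asked where clock proteins sat around the 4 genes. Within each gene and 10 kb on either side there were 105 summits, which fell into 40 regions when summits within 200 bp were joined: 20 summits in 8 regions at Dbp, 33 in 10 at Tef, 25 in 13 at Hlf and 27 in 9 at Nfil3. Every gene had a summit in each of the 6 lists. Of 21883 protein-coding genes, 59.5% and 39.7% had one in the Bmal1 lists, 22.6% and 61.9% in the Nr1d1 lists, and 65.9% and 31.2% in the Dbp lists. Of the 40 regions, 5 (12.5%) were in all 6 lists, 3 of them at Tef, 1 at Dbp, 1 at Nfil3 and 0 at Hlf, beside 2.78% of 73775 regions in the genome. Regions with all 3 targets were 13 (32.5%), beside 33.4% in the genome.

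By target, a summit in both lists within 200 bp was present at 4 of 4 genes for Bmal1, beside 25.9% of protein-coding genes. It was present at 3 of 4 for Nr1d1, all but Hlf, beside 13.3%, and at 3 of 4 for Dbp, all but Dbp itself, beside 28.1%. The 2 Dbp summits at the Dbp gene, at chr7:45704815 and chr7:45705036, were 221 bp apart and so just missed the limit. These percentages cover genes of all lengths, and the windows here were 25.1 kb (Dbp), 44.2 kb (Tef), 74.4 kb (Hlf) and 35.7 kb (Nfil3) long.

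At Dbp (chr7:45705100-45710203, plus strand) the region in all 6 lists lay at chr7:45704815-45705036, about 310 bp upstream of the start and partly in the promoter window printed above. Its summits stood in the top 3.79% and 6.73% of the Bmal1 lists by deposited score, the top 59.2% and 4.6% of the Nr1d1 lists, and the top 13.7% and 35.6% of the Dbp lists. A second Bmal1 region of both lists lay in the gene, 2549 bp from the start, with its best summit in the top 8.71%. The 3 regions farthest downstream, 9603 to 12710 bp from the start, were closer to starts of Sphk2, at 14 to 357 bp.

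At Tef (chr15:81802673-81826863, plus strand) the region with the best-ranked summit at any of the 4 genes lay at chr15:81810882-81810922, 513 bp before the second start. Its summits were 125th and 95th in the Bmal1 lists, and 37th in Nr1d1 list 2, the top 0.0966%. They were in the top 12.6% of Nr1d1 list 1, and in the top 3.32% and 7.39% of the Dbp lists. The promoter of the first start, with an E-box, held 5 summits, from all lists but Dbp list 1, in the top 1.92% and 2.46% of the Bmal1 lists. For the summits of Bmal1 list 2 and Nr1d1 list 2 the nearest annotated start was that of Gm17597, at 29 and 9 bp. For those of Bmal1 list 1, Nr1d1 list 1 and Dbp list 2 it was that of Tef, at 25, 13 and 21 bp. The promoter of the second start held 1, from Dbp list 2. The best summit of Dbp list 1 at any of the 4 genes, 264th in that list, lay downstream of Tef in the region chr15:81836463-81836621, about 25.1 kb from the second start. The nearest annotated start to that region was that of Tob2, at 21801 bp. In Dbp list 2 the best was at the first Tef promoter, at chr15:81802694 (228th, top 2.21%), just ahead of the one downstream (240th, top 2.32%).

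At Hlf (chr11:90336535-90390917, minus strand) only 1 region held all 3 targets, at chr11:90355318-90355414 in the gene, 35571 bp from the start, and Nr1d1 list 1 had no summit there. Of 25 summits 15 were from the Bmal1 lists, and within 1 kb of the start there was 1, from Bmal1 list 1, in the top 15.7%. Hlf was also the gene with the lowest RNA level.

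At Nfil3 (chr13:52967209-52982878, minus strand) the region in all 6 lists lay in the gene, at chr13:52974836-52974894, 6174 bp from the start. Its Bmal1 summits stood in the top 2.51% and 0.447% (88th in list 2), its Nr1d1 summits in the top 44.7% and 5.6%, and its Dbp summits in the top 19.0% and 15.4%. The promoter window printed above, with the RRE letters, held 3 summits, 1 each from Bmal1 list 1, Nr1d1 list 2 and Dbp list 1. The start used for that window, chr13:52981039, lies inside the gene span given above. The nearest Nr1d1 list 2 summit was 157 bp from the start and the nearest of list 1 was 6145 bp away. A region of both Bmal1 lists, Nr1d1 list 2 and Dbp list 1 lay 974 bp before the start, with its best summit in the top 12.2%. A Bmal1 region of both lists near the end of the window, 23190 bp from the start, stood in the top 1.07%, and its nearest annotated start was that of Gm40950.

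**Figure D5:**
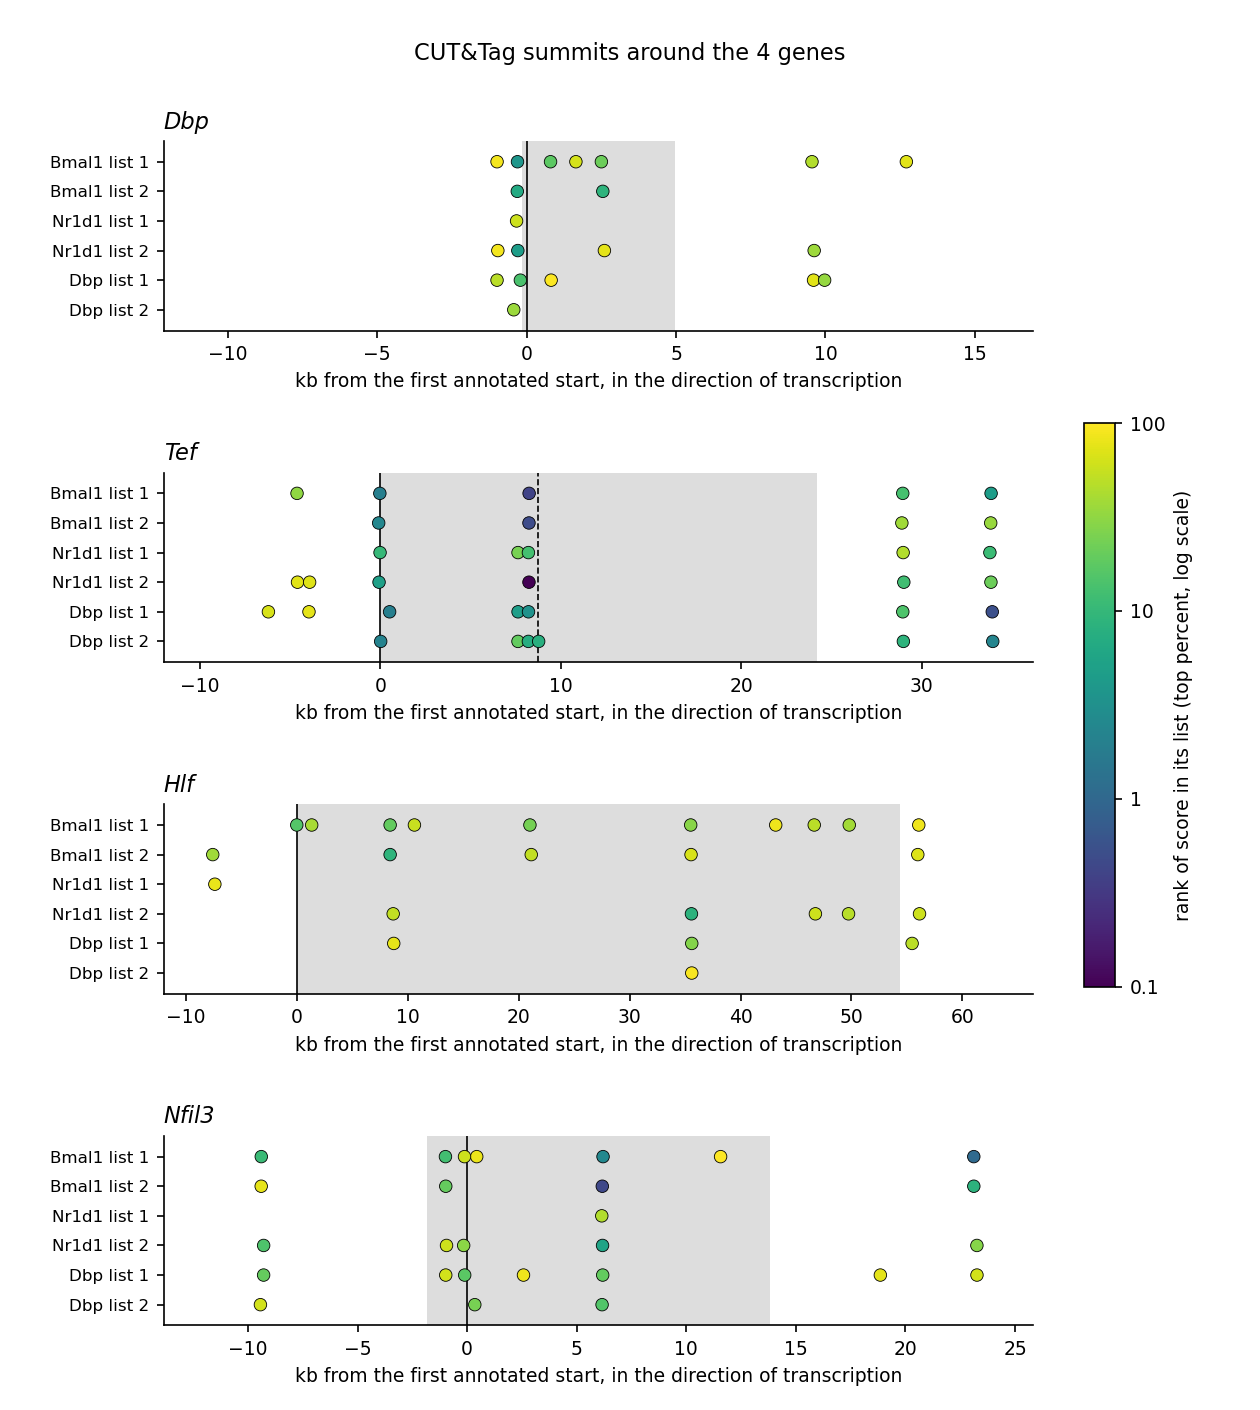
Summits of the 6 CUT&Tag lists around each gene by distance in kb from its first annotated start, in the direction of transcription; grey marks the gene, the solid line its first start, the dashed line the second start of Tef, and colour the rank of the score within its list (top percent, log scale). Summits of all 6 lists line up at 1 place in Dbp and Nfil3 and 3 in Tef, and at none in Hlf.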

How the data were processed

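RNA-seq and CUT&Tag of mouse submandibular gland were analysed from the deposited files. FPKM per gene was computed by the authors, per the labels' protocols. Per the submitters' processing notes, the tools included HISAT2, SAMtools, Cufflinks and Bowtie2 and the build was mm10; the sources used here give no versions, roles, annotation or strand setting. CUT&Tag summits span 1 bp, and each has a deposited score from the authors whose caller, control and scale are not stated, so scores only ranked summits within a list.

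Each FPKM file held 55398 entries. The 217 entries of 107 repeated symbols were left out, which left 55181 genes. Genes with at least 1 FPKM in at least 2 libraries (15161) were fitted as log2(FPKM + 1), which understates the change of low genes, with limma 3.58.1 in R 4.3.3 (trend, 1 mean per group, 10 libraries, 5 residual degrees of freedom; two-sided, Benjamini-Hochberg). FPKM carries no counts, so depth is unknown and the number of libraries limits precision. With 2 libraries per group no exact permutation test can pass. Steps were tested on simulated data. Python 3.11.15, numpy 2.4.6, pandas 2.3.3 and matplotlib 3.10.9 were used.

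The members and gene lists were chosen with earlier results of these data known. The 4 members are named in every comparison, with called members of each list (2 listed genes are not reported here), the 3 genes most like each member and, per gene and target, the best-ranked summit; other genes named were chosen after their values were seen. Alternatives were a pseudocount of 0.1, no filter, 2 other scalings, a replicate block, a Y-linked covariate, other controls, the compared libraries alone and leaving out each library. For summits they were a stricter score, 5 kb or no flank, 500 bp for joining, and 1 list alone. Promoter windows and gene positions came from RefSeq. Summit sequences and exon or intron positions were not used here.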

Additional observations from a re-analysis of the deposited data

How the results depend on the processing

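Of the counts of called members under alternatives, 152 of 159 were unchanged, and the other 7 were 1 in place of 0. Without 1 library, the count ranged from 0 to 1 for ZT9 against ZT3 (Dbp), 24 h against ZT3 (Tef) and irradiated against unirradiated (Nfil3), and with the compared libraries alone it was 1 for ZT9 against ZT3; the cause was not tested. Of 635 log2 differences 24 changed sign. Other controls gave Dbp at 6 h 3.75 (ZT3), 2.21 (ZT15) and 1.66 (mean of the 3 times), and Hlf 0.77, 0.042 and 0.18; they gave Dbp at 24 h -2.10 (ZT9), and Hlf -0.53 (ZT9), -0.23 (ZT15) and -0.088 (mean). Median-of-ratios scaling gave Tef -0.029 at 6 h against ZT9 and -0.098 at 24 h against 6 h, where quantile normalization gave -0.081; for irradiated against unirradiated, Hlf was -0.040 and -0.018 under these. Median-of-ratios scaling moved the median log2 difference of all genes at 24 h against ZT3 to -0.0085, against 0.21 as deposited. Without 1 library, Tef ranged from -0.16 to 0.38 at 6 h against ZT9 and from -0.37 to 0.46 at 24 h against 6 h, where Nfil3 ranged from -0.21 to 0.022. Hlf ranged from -0.61 to 0.084 at 6 h against ZT9, from -0.65 to 0.042 at ZT15 against ZT9 and from -0.067 to 0.16 for irradiated against unirradiated. The number of genes called varied more: 0 to 88 for ZT9 against ZT3 (1 in the fit of all libraries), 4 to 154 at 6 h (78), 11 to 842 at 24 h (75) and 81 to 413 for irradiated against unirradiated (295). Replicate numbers did not pair the libraries (correlations of deviations from -0.141 to 0.473), and the replicate block left the count of called members at 0 in every comparison. Hlf had no value at 24 h against ZT3 with the compared libraries alone, where it was below the filter. The 18 alternative summit counts stayed within 1.5 times. The irradiated against unirradiated comparison and the difference of changes were added after the values were seen.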

Other observations

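The C/EBP factors, bZIP relatives that can bind some D-box sites, were listed beside the members. Of 6 listed, 4 passed the filter and none was called by limma at 24 h against ZT3 (2 at an unadjusted p under 0.05) or at 6 h against ZT9 (0 at that p). Of all genes 0.495% were called at 24 h against ZT3 and 2720 had an unadjusted p under 0.05, and 0.514% and 1847 at 6 h against ZT9. Cebpb, a C/EBP factor of the acute-phase response, had 21.1 and 18.3 FPKM at 6 h and 12.4 and 20.8 FPKM at 24 h, against 9.39 and 9.58 FPKM at ZT3, 23.3 and 18.2 FPKM at ZT9 and 18.4 and 14.2 FPKM at ZT15. Its ZT3 libraries were the lowest of the 10, as for Dbp, Tef and Hlf. Cebpa, which acts in liver and fat, had 10.7 and 15.1 FPKM at 6 h and 7.52 and 10.8 FPKM at 24 h. In unirradiated glands it had 6.35 and 10.2 FPKM at ZT3 and 9.35 and 13.4 FPKM at ZT9. Its libraries overlapped at 6 h against ZT9 and at 24 h against ZT3. The median log2 difference of the 4 at 24 h against ZT3 was 0.46, beside 0.21 for all genes.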
